A study of Mus musculus with 40 samples.

Results

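The T cell receptor delta (Trd) repertoire of thymocytes was compared between EACBE-/- and EACBE+/+ mice in 4 of the 40 samples of the series. The members are the Trd tables, 2 libraries per genotype, chosen by their labels. Together they list 104 V segments joined to Trdj1 or Trdj2. The series title concerns a CTCF binding site at the enhancer Ea, and the labels call the site EACBE. The EACBE+/+ animals are wild type at the site and the EACBE-/- animals are homozygous for its loss. All were C57BL/6 mice of 4 to 8 weeks, and total thymocyte RNA was copied by 5′ RACE with an oligo(dT) primer and template switching, which needs no V-specific primer. How many animals or founder lines stand behind a library is not given in the labels, so p-values below measure the spread between these libraries, which may be technical. No table covers the deleted site or any marker of a cell type, so neither genotype nor cell type could be checked here.

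A delta chain is built in immature thymocytes by joining a V, a D and a J segment, and it pairs with a gamma chain on gamma delta T cells. The Trd locus lies inside the T cell receptor alpha locus (Tcra), between its V and J segments, so that joining of a Trav to a Traj segment deletes most of Trd from that chromosome. Ea lies at the far end of Tcra beyond the constant gene Trac, whereas Trd has an enhancer of its own next to its J segments. Some V segments, the Trdv group, join in delta chains almost alone, others carry dv in their names because they are used in both chains, and the remaining Trav segments are known mainly from alpha chains. Trdv5 is set apart by its place downstream of the delta constant gene in the opposite orientation, and it joins by inversion.

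The replicates differed in depth and in the segments listed. Wild-type replicates 1 and 2 held 1744 and 28093 counts over 18 and 88 listed V segments. EACBE-/- replicates 1 and 2 held 5615 and 47158 counts over 22 and 103. Of the 104 segments, 22 were listed in both replicate numbers, 82 in replicate 2 alone and 0 in replicate 1 alone. The 22 shared segments held all counts of replicate 1 and 92.3% and 90.5% of those of wild-type and EACBE-/- replicate 2. Shares are therefore given as percent of all counts in a table and, where stated, of the counts over the 22 shared segments. Within a library a lower share of one segment raises the others, and in bulk RNA fewer cells and less RNA per cell cannot be told apart. Intervals on shares are 95% Wilson intervals and cover counting error only.

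Trdv1 and Trdv2-2 took smaller shares of the Trd repertoire in both EACBE-/- libraries than in either wild-type library, and Trdv5 and 2 Trav15-dv6 segments took larger shares. Trdv1 was 2.82-fold lower on average, Trdv2-2 was 1.75-fold lower, and Trdv5 was 1.5-fold higher. Of the 22 shared segments, 21 passed the filter on low counts and were tested with edgeR's quasi-likelihood test. None of these 21 differed at an adjusted p of 0.05 (0% called). DESeq2, run without that filter on all 22, called 0 as well. At an unadjusted p under 0.05, edgeR had 3 segments (14.3%), which were Trdv1, Trdv2-2 and Trdv5, and DESeq2 had 1 of 22. The libraries of the genotypes did not overlap for 6 of the 21 segments (28.6%). Of these, 4 were higher in EACBE-/- (19%), namely Trdv5, Trdv4, Trav15-1-dv6-1 and Trav15-2-dv6-2, and 2 were lower (9.52%), namely Trdv1 and Trdv2-2. The same 6 segments stood apart on both scales. With 2 libraries per genotype, a segment without any difference stands apart, in either direction, with a probability of 0.33. Standing apart in 28.6% of segments is therefore not evidence of a difference by itself. The same limit holds below wherever genotypes are said not to overlap. With Trdv1, Trdv2-2 and Trdv5 set aside, Trdv4 and the 2 Trav15-dv6 segments overlapped between genotypes.

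**Figure D1:**
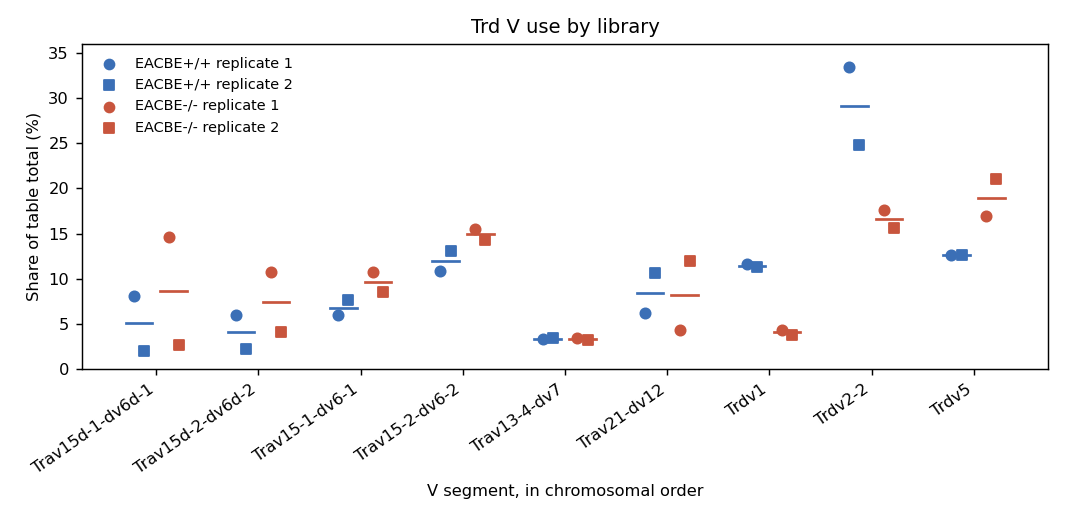
Share of table total in percent for the 9 tested V segments with at least 50 counts in every library, in chromosomal order, with one point per library (circles replicate 1, squares replicate 2, blue wild type, red EACBE-/-) and a line at each genotype's mean. Trdv1 lies at 11.6% and 11.3% in wild type, against 4.31% and 3.79% in EACBE-/-, and the points of Trav21-dv12 overlap between genotypes.

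Trdv1, a V segment known from delta chains, lies on chromosome 14 at 53881612 to 53882217 of GRCm38.p6, 240.9 kb upstream of Trdj1. It held 11.6% and 11.3% of counts in wild-type replicates 1 and 2, and 4.31% and 3.79% in EACBE-/- replicates 1 and 2. The wild-type libraries lay within each other's intervals (10.2 to 13.2% and 10.9 to 11.6%), and both lay above the EACBE-/- intervals (3.81 to 4.87% and 3.62 to 3.97%). Its mean share was 11.4% ± 0.229 (SD, n = 2) in wild type, against 4.05% ± 0.367 (SD, n = 2) in EACBE-/-. Within replicate 1 the share was 2.69-fold lower in EACBE-/-, and within replicate 2 it was 2.97-fold lower. The log2 change was -1.50 (SE 0.21), with an edgeR p of 0.0029 that became 0.0609 after Benjamini-Hochberg adjustment. Scaled by the counts of the 22 shared segments, Trdv1 held 12.2% in wild-type replicate 2 and 4.19% in EACBE-/- replicate 2, the log2 change was -1.48, and the edgeR adjusted p was 0.0487. Over the 9 alternative fits of this segment that kept all 4 libraries, the log2 change ran from -1.62 to -1.39. The adjusted p of edgeR or DESeq2 ran from 8.69e-06 to 0.202, with 5 of them under 0.05. The lowest came from the replicate number as a block, and the numbers are not stated to pair libraries. The other 4 were the block with shared totals, shared totals alone, copies summed and Trdv5 left out of the totals. The first and last of these 4 were chosen after seeing the data. Without any one of the 4 libraries the log2 change stayed between -1.59 and -1.41.

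Trdv2-2, the most used V segment of the wild-type libraries, lies at 53960993 to 53961602 of chromosome 14, 161.5 kb upstream of Trdj1. It held 33.5% and 24.9% of counts in wild-type replicates 1 and 2, against 17.6% and 15.7% in EACBE-/-. The wild-type replicates differed from each other by more than the EACBE-/- replicates did (29.2% ± 6.10 against 16.7% ± 1.41, SD, n = 2 each), but no library entered the range of the other genotype. The share was 1.90-fold lower in EACBE-/- within replicate 1 and 1.59-fold lower within replicate 2. The log2 change was -0.81 (SE 0.21), with an edgeR adjusted p of 0.218. The ratio of Trdv2-2 to Trdv1 counts, which does not depend on the library total, was 2.89 and 2.21 in wild type, against 4.10 and 4.13 in EACBE-/-. Trdv1 was thus lower in EACBE-/- relative to Trdv2-2 as well, in both replicate numbers.

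Trdv5, the V segment downstream of the delta constant gene, lies at 54148662 to 54149201 of chromosome 14, at -25.5 kb on the scale of distance upstream of Trdj1. It held 12.6% and 12.7% of counts in the wild-type libraries, against 16.9% and 21.0% in the EACBE-/- libraries. The wild-type libraries were nearly equal (12.6% ± 0.0382, SD, n = 2), the EACBE-/- libraries spread more (19.0% ± 2.91, SD, n = 2), and the groups did not overlap. The share was 1.34-fold higher in EACBE-/- within replicate 1 and 1.66-fold higher within replicate 2. The log2 change was 0.59 (SE 0.18), with an edgeR adjusted p of 0.248.

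Counts of the 3 main Trdv segments were also set against each other, which does not depend on the library total. In shares, Trdv5 was higher and Trdv1 and Trdv2-2 were lower in both EACBE-/- libraries. Ratios of Trdv5 to either therefore had to separate the genotypes and are not separate evidence. There were 0.377 and 0.510 counts of Trdv5 per count of Trdv2-2 in wild type, against 0.960 and 1.34 in EACBE-/-. Per count of Trdv1, there were 1.09 and 1.125 counts of Trdv5 in wild type, against 3.93 and 5.55 in EACBE-/-. In EACBE-/- replicate 2 Trdv5 was thus the more frequent of Trdv5 and Trdv2-2, whereas Trdv2-2 was the more frequent in the other 3 libraries.

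**Figure D2:**
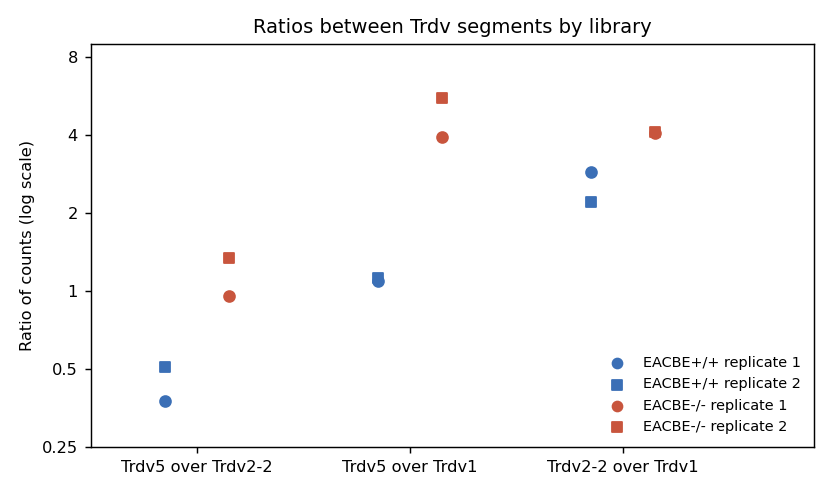
Ratio of counts between 3 pairs of Trdv segments in each Trd library (vertical log axis, circles replicate 1, squares replicate 2, blue wild type, red EACBE-/-). Trdv5 over Trdv2-2 lies at 0.377 and 0.510 in wild type, against 0.960 and 1.34 in EACBE-/-, and of the 3 ratios Trdv5 over Trdv1 differs most between genotypes, the higher segment being set over the lower.

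The other members of the Trdv group were rare. Trdv4, which lies 47.6 kb upstream of Trdj1 at 54075004 to 54075515 and is known from the delta chain of the epidermal T cells of mouse skin, had 3 and 31 counts in wild type, against 10 and 101 in EACBE-/-. Its shares were 0.172% and 0.110% in wild type, against 0.178% and 0.214% in EACBE-/-. The groups did not overlap, but in replicate 1 the intervals (0.0585 to 0.505% and 0.0968 to 0.328%) did, so a difference was not detectable there at this depth. Trdv2-1, at 53946073 to 53946660, held 0.344% and 0.160% in wild type, against 0.214% and 0.261% in EACBE-/-. Its genotypes overlapped, and the replicates lay on opposite sides. Trdv3 was not among the listed segments.

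Among the V segments used in both chains, the Trav15-dv6 family, which supplies delta chains to innate-like gamma delta T cells, held the most counts. Trav15-1-dv6-1, at 53559676 to 53560247, held 5.96% and 7.67% in wild type, against 10.7% and 8.56% in EACBE-/-. Trav15-2-dv6-2, at 53649425 to 53649994, held 10.9% and 13.1% in wild type, against 15.5% and 14.3% in EACBE-/-. Neither overlapped between genotypes, with means 1.41-fold and 1.24-fold higher in EACBE-/- and log2 changes of 0.50 and 0.31 (edgeR adjusted p = 0.709 for both).

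The copies of this family in the duplicated stretches further upstream followed the replicate number more than the genotype. Trav15d-1-dv6d-1 held 8.14% of counts in wild-type replicate 1 and 2.00% in replicate 2, against 14.6% and 2.69% in EACBE-/-. Trav15d-2-dv6d-2 held 6.02% and 2.27% in wild type, against 10.7% and 4.08% in EACBE-/-. Both were higher in EACBE-/- within each replicate number (1.80-fold and 1.34-fold, then 1.78-fold and 1.79-fold), but their genotypes overlapped over all 4 libraries. The log2 changes of 0.78 and 0.85 were -0.90 and -0.0125 without EACBE-/- replicate 1 and 2.109 and 1.70 without wild-type replicate 1. As a share of all Trav15 counts, copies with d in the name made up 45.7% and 15.0% in wild type, against 49.2% and 19.8% in EACBE-/-, in replicates 1 and 2. The near-identical copy Trav15n-1 was listed in replicate 2 alone, where copies with n made up 12.4% and 13.4% of the family. No source used here states how counts were divided between near-identical copies, so values of single copies are uncertain.

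With all 6 listed Trav15 rows summed, the family held 31.0% and 28.6% of counts in wild type, against 51.6% and 34.3% in EACBE-/-. The genotypes did not overlap, and EACBE-/- replicate 1 stood well above the other 3 libraries. Summed over copies, Trav15-1 held 14.1% and 13.2% in wild type, against 25.3% and 15.8% in EACBE-/- (log2 change 0.59). Trav15-2 held 16.9% and 15.4% in wild type, against 26.2% and 18.5% in EACBE-/- (log2 change 0.47). Both had an edgeR adjusted p of 0.381 in that fit, in which Trdv1 had 0.0434.

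Other shared V segments held steadier or mixed shares. Trav21-dv12, which lies 246.4 kb upstream of Trdj1 and next to Trdv1, held 6.19% and 10.6% in wild type, against 4.35% and 12.01% in EACBE-/-. It was lower in EACBE-/- in replicate 1 and higher in replicate 2, and the genotypes overlapped (log2 change -0.04). Trav13-4-dv7, 365.2 kb upstream, held 3.33% and 3.42% in wild type, against 3.44% and 3.19% in EACBE-/-, also with overlap.

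**Figure D3:**
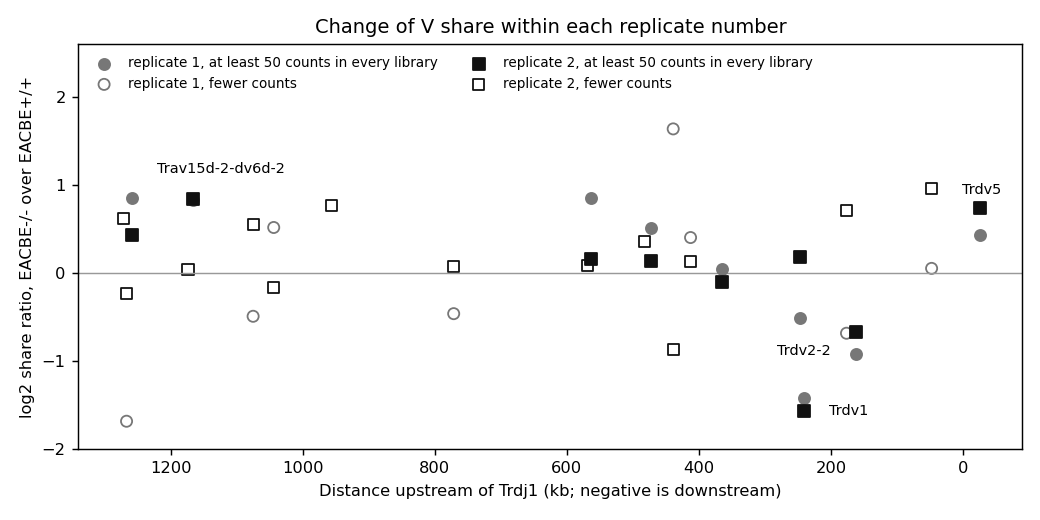
Log2 ratio of the share of table total, EACBE-/- over EACBE+/+, within replicate 1 (circles) and replicate 2 (squares), against distance upstream of Trdj1 in kb, for V segments listed in both replicate numbers, with points left out where a library has no count. Filled points have at least 50 counts in every library. Trdv1 and Trdv2-2 lie below 0 in both replicate numbers and Trdv5, at -25.5 kb, lies above 0 in both.

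By group, the 5 listed Trdv segments together held 58.2% and 49.1% of counts in wild type, against 39.3% and 41.0% in EACBE-/-. The 10 V segments with dv in a Trav name held 41.5% and 40.4% in wild type, against 60.5% and 46.3% in EACBE-/-. Neither pair of groups overlapped, with mean differences of -13.5 and 12.4 percentage points, each with a two-sided exact permutation p of 0.33, the smallest that 2 libraries against 2 allow, and an adjusted p of 0.5. The 89 Trav segments without dv held 0.287% and 10.5% in wild type, against 0.196% and 12.7% in EACBE-/- (exact permutation p = 1). The rows listed in replicate 2 alone gave only part of the gap between replicates. As a share of the 22 shared segments, the 7 without dv held 0.287% and 3.04% in wild type, against 0.196% and 3.56% in EACBE-/-. This group is by name alone. It includes Trav15n-1, the near-identical copy of the Trav15-dv6 family, with 3.49% in wild-type and 4.50% in EACBE-/- replicate 2. No Trbv segment, from the beta locus, was listed in any Trd table.

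Single segments of a group did not all lie on the side of its sum. Over all 21 segments tested, 9 were higher in EACBE-/- in both replicate numbers and 3 were lower in both. Of the 5 Trdv segments tested, 2 were higher in EACBE-/- in both replicate numbers, 2 were lower in both and 1 was mixed, with a median log2 change of -0.04 beside 0.16 over all 21 segments tested. Of the 10 segments with dv in a Trav name, 5 were higher in both, 0 lower in both and 5 mixed, with a median of 0.31. Of the 6 other Trav segments tested, 2 were higher in both, 1 was lower in both and 3 were mixed, with a median of -0.03. The lower sum of the Trdv group therefore held Trdv1 and Trdv2-2 on one side and Trdv5 and Trdv4 on the other.

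With Trdv1, Trdv2-2 and Trdv5 set aside, the other 19 shared segments together held 42.3% and 43.5% of counts in wild type, against 61.1% and 50.0% in EACBE-/-. Within those 19, Trav15-2-dv6-2 held 25.7% and 30.1% in wild type, against 25.4% and 28.6% in EACBE-/-. On that base it overlapped between genotypes. So did Trav15-1-dv6-1, with 14.1% and 17.6% in wild type, against 17.5% and 17.1% in EACBE-/-. Trdv4 overlapped as well, with 0.407% and 0.254% in wild type, against 0.291% and 0.428% in EACBE-/-. Trav13-4-dv7 held 7.86% in both wild-type libraries and 5.63% and 6.38% in EACBE-/- on the same base. Its genotypes thus stood apart on this base, whereas they overlapped on the table total and on the total of the shared segments. Per count of Trdv2-2, Trav15-2-dv6-2 had 0.325 and 0.527 counts in wild type, against 0.878 and 0.915 in EACBE-/-. That separation follows from the table shares of these segments and is not separate evidence.

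By the inverse Simpson number, but not by the Shannon number, counts were spread slightly more evenly over V segments in both EACBE-/- libraries than in either wild-type library. The inverse Simpson number, the number of equally used segments that would give the same concentration, was computed over the 22 shared segments after thinning each library to 1744 counts. It was 5.81 and 6.67 in wild type, against 7.51 and 7.02 in EACBE-/- (two-sided exact permutation p = 0.33). By the Shannon number, which gives rare segments more weight, the values were 7.79 and 8.61 against 8.58 and 9.01, and the groups overlapped (exact permutation p = 0.667).

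Nearly all counts joined to Trdj1, at 54123138 to 54123188, rather than to Trdj2, at 54136779 to 54136837. Trdj2 took 0.917% and 0.990% of counts in wild type (16 and 278 counts) and 0.873% and 0.831% in EACBE-/- (49 and 392 counts). The intervals of the wild-type libraries were 0.565 to 1.49% and 0.880 to 1.11%, and those of EACBE-/- were 0.661 to 1.15% and 0.753 to 0.917%, so they overlapped. The share of Trdj1 was 0.102 percentage points higher in EACBE-/- on average (two-sided exact permutation p = 0.33). The EACBE-/- values were thus lower than both wild-type values for Trdj2, by less than the counting intervals resolve, and with 2 libraries per genotype the permutation test could not have reached a lower p.

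The share of counts joined to Trdj2 was also taken for single V segments. Trdv5 joined Trdj2 in 0 of 220 and 5 of 3559 counts in wild type, and in 2 of 951 and 27 of 9926 in EACBE-/-. These are 0%, 0.140%, 0.210% and 0.272%, beside 1.05%, 1.11%, 1.01% and 0.980% for all other V segments in the same libraries. Trdv5 was lower in 4 of 4 libraries, by 0.882 percentage points on average (SD 0.157). The comparison was chosen after these values were seen and is given without a test.

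Trav15-1-dv6-1 and Trav15-2-dv6-2, of one family, had different Trdj2 shares in replicate 2. Trav15-1-dv6-1 had 0.962%, 0.325%, 0.332% and 0.347% in wild-type replicates 1 and 2 and EACBE-/- replicates 1 and 2, and Trav15-2-dv6-2 had 0.526%, 1.52%, 0.805% and 1.15%. The former was lower in 3 of 4 libraries, and the exception, wild-type replicate 1, rests on 1 Trdj2 count of each. The Trav14 family, copies and dv member summed, had 0%, 4.85%, 3.85% and 2.73%, against 0.921%, 0.929%, 0.859% and 0.797% for the other segments, and was higher in 3 of 4 libraries. Both comparisons were chosen after the values were seen and are given without a test. The Trav14 share in wild-type replicate 1 rests on 7 counts and in EACBE-/- replicate 1 on 26. Trdv2-2 joined Trdj2 in 1.37% and 1.05% of its counts in wild type, against 1.41% and 1.33% in EACBE-/-. Trdv2-1 had no Trdj2 count among 45 and 123 in replicate 2, which allows shares of up to 6.67% and 2.44%.

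**Figure D4:**
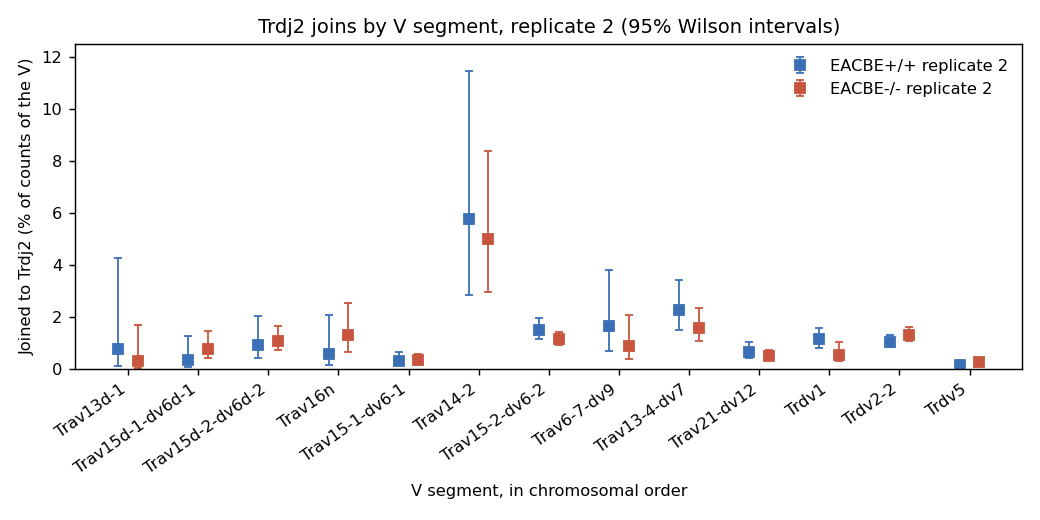
Percent of a V segment's counts joined to Trdj2 in the replicate 2 libraries, in chromosomal order, for V segments with at least 100 counts in both, with 95% Wilson intervals. Trdv5 lies at 0.140% in wild type (blue) and 0.272% in EACBE-/- (red), and Trav14-2 lies highest at 5.79% and 5.02%.

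Testing each V-J pair gave no further segment. Of 26 pairs tested with edgeR, 0 had an adjusted p under 0.05 (0%) and 3 an unadjusted p under 0.05 (11.5%). DESeq2, run without the filter on 43 pairs, called 0, with 1 unadjusted. The 3 pairs from edgeR were Trdv1 with Trdj1 (log2 change -1.50, edgeR adjusted p = 0.0758), Trdv2-2 with Trdj1 (-0.81, 0.237) and Trdv5 with Trdj1 (0.58, 0.286). They hold nearly the same counts as the V sums above and are not separate evidence. The next by p were Trav15-1-dv6-1 and Trav15-2-dv6-2 with Trdj1 (log2 changes 0.50 and 0.31) and Trav21-dv12 with Trdj2 (-1.67, edgeR adjusted p = 0.941). The last rests on 4 and 20 counts in wild type, against 1 and 29 in EACBE-/-. It was -0.71 when wild-type replicate 1 was left out, and -2.85 when EACBE-/- replicate 2 was.

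The 82 V segments listed in replicate 2 alone were compared between its 2 libraries, with no replicate check. They held 2164 counts (7.70%) in wild type, against 4473 (9.49%) in EACBE-/-, with a count in 58 and 67 of them and in neither library for 10. Among the 19 with at least 50 counts over both libraries, 13 had a higher share in EACBE-/- and 6 a lower one, and the median fold was 1.24. In the same libraries the shared segments other than Trdv1, Trdv2-2 and Trdv5 were together 1.15-fold higher in EACBE-/-. Of the 19, the Wilson intervals lay apart for 4 higher segments, Trav15n-1, Trav6-3, Trav6-5 and Trav6-6, and for 2 lower ones, Trav8-2 and Trav13n-1. Among the rest of the 82 segments, each with fewer counts, they lay apart for Trav6-2 and Trav12d-3, both higher, and for Trav19, which was lower. Wilson intervals treat each count as an independent draw. Whether counts are of reads or of distinct receptors is not stated, and for reads the intervals could be too narrow.

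Trav15n-1 held the most counts of any of these segments, with 980 (3.49%) in wild type, against 2124 (4.50%) in EACBE-/-. The next by share, each well under 1%, were Trav13d-2 (0.402% and 0.524%), Trav13-2 (0.409% and 0.479%), Trav14-3 (0.370% and 0.481%), Trav6-5 (0.292% and 0.503%) and Trav13d-3 (0.253% and 0.276%). Among the 19 segments with at least 50 counts, the highest folds were those of Trav6-3, at 4.96 from 9 and 75 counts, Trav6-6 at 2.12 and Trav6-5 at 1.72. The lowest were Trav8-2, 2.28-fold lower in EACBE-/- from 76 and 56 counts, Trav13n-1, 1.94-fold lower, and Trav13d-4, 1.73-fold lower. Intervals of Trav13d-4 overlapped.

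**Figure D5:**
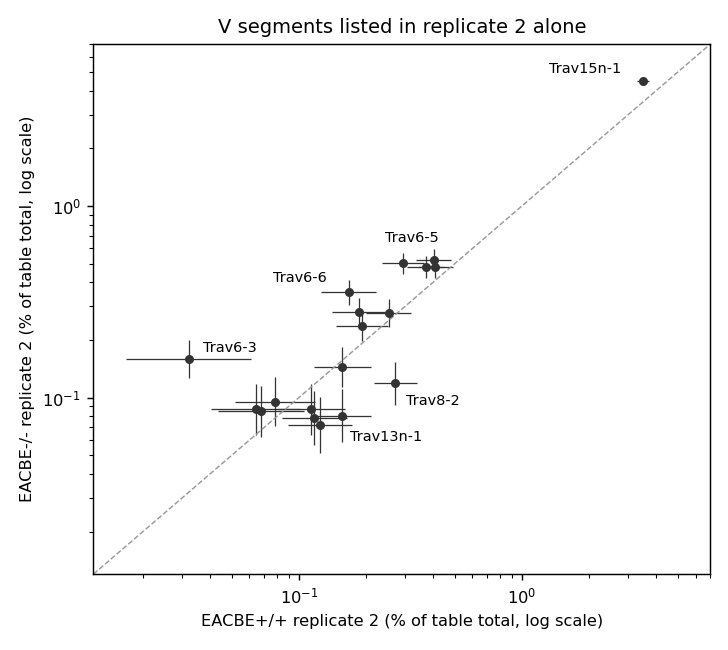
Share of table total in EACBE-/- replicate 2 against that in wild-type replicate 2, in percent on log axes, for the 19 V segments listed in replicate 2 alone with at least 50 counts over both libraries. Bars are 95% Wilson intervals and the dashed line marks equal shares. Trav6-3 lies furthest above the line and Trav8-2 furthest below.

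The most upstream V segments, Trav1 to Trav6-2, were chosen as a block after earlier results of these data and set beside the Tcra tables of the same genotypes. In Trd these 7 segments held 23 counts (0.0819%, interval 0.0546 to 0.123%) in wild-type replicate 2 and 71 (0.151%, interval 0.119 to 0.190%) in EACBE-/- replicate 2. In Tcra replicate 2 they held 3.51% (3.42 to 3.59%) in wild type, against 0.402% (0.372 to 0.434%) in EACBE-/-. The Trd intervals overlapped, and Trav6-2 alone gave 8 of the 23 counts and 37 of the 71. Trd listed these segments in replicate 2 alone, and the replicate 1 libraries of Tcra were not used for this block. With 1 library used per locus and genotype, the difference between the repertoires was not tested.

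For single V segments listed in both replicate numbers of both loci, the change in Trd was compared with the change in Tcra by an interaction term. Trd and Tcra libraries of the same genotype and replicate number may share RNA. The fit treated the 4 Trd and 4 Tcra libraries as independent, so its p-values carry that limit. Of 17 segments tested with edgeR, 0 had an adjusted p under 0.05 (0%), and 0 an unadjusted p under 0.05. No other tool was run on it. The lowest p belonged to Trav15-2-dv6-2, with a Trd log2 change 0.51 above its Tcra change (edgeR adjusted p = 0.995). In Tcra, Trav15-2-dv6-2 held 0.458% and 0.475% of counts in wild type (49 and 819 counts), against 0.356% and 0.455% in EACBE-/- (68 and 746 counts). The EACBE-/- values lay below the wild-type ones, but 0.455% and 0.458% were nearly equal. In Trd the share of Trav15-2-dv6-2 was higher in EACBE-/- in both replicate numbers. The interaction test did not separate its changes in the 2 repertoires. The next were Trav15d-2-dv6d-2 (difference of log2 changes 1.19) and Trav14d-1 (-1.41). Without one Trd library in turn, the former ran from 0.34 (without EACBE-/- replicate 1) to 2.04 (without wild-type replicate 1), and the latter from -4.54 (without EACBE-/- replicate 2) to 0.40 (without wild-type replicate 2). Trav21-dv12, mixed in Trd, held 1.66% and 2.34% of Tcra counts in wild type, against 2.17% and 3.15% in EACBE-/-.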

How the data were processed

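Each Trd library was deposited by the authors as 1 table of raw counts, V segments by Trdj1 and Trdj2, per the file headers. Thymocyte RNA was copied by 5′ RACE with template switching, per the labels' protocols. No source used here names the tool that assigned segments, states its treatment of near-identical copies, or says whether counts are of reads or of distinct receptors. Reads would give an abundant transcript more weight than a rare one. The submitters' processing notes name mm10 and, with no role stated, Juicer 1.13.02, HiC-Pro 2.11.1, bedtools 2.26.0, cutadapt 0.4.4 and 2 versions of Bowtie2, 2.20.8 and 2.3.4.3. All 106 segment names were matched by symbol to RefSeq on GRCm38.p6, the assembly behind mm10.

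Counts were summed per V segment. A listed segment with no entry counted as 0, and segments listed in replicate 2 alone stayed in table totals but out of the tests. edgeR 4.0.16 (R 4.3.3; glmQLFit, glmQLFTest) took each table total as the library size, without TMM factors, after filterByExpr at a minimum count of 10 and a minimum total of 15. Benjamini-Hochberg adjustment ran over all features of a fit, with a threshold of 0.05. The SE is the log2 change divided by the square root of F. Alternatives were TMM factors, totals over the shared segments, DESeq2 1.42.0, no filter, segments of 1 replicate kept, copies summed, the replicate number as a block, each library left out and, chosen after seeing the data, the block with shared totals and Trdv5 left out of the totals. Shares of lists were compared by two-sided exact permutation tests. Thinning used 100 draws, intervals are at 95%, and a count of 0 allows up to 3 counts. Python 3.11.15, numpy 2.4.6, pandas 2.3.3, scipy 1.17.1, statsmodels 0.14.6 and matplotlib 3.10.9 did the rest. The edgeR fits were also run on simulated counts, with changes set larger than most of those reported here. Those runs do not show how the fits perform on smaller changes. The interaction runs also had less spread between libraries than was estimated from these data.

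The members, lists and alternatives were chosen with earlier results of these data known. Named V segments were those past the threshold with libraries that do not overlap (up to 10), filled by lowest p to 6, the 6 with the highest mean share, and always the Trdv segments, Trav21-dv12 and the Trav15 copies listed in both replicate numbers. Trav13-4-dv7, the Trav14 family and Trav6-2 were named after their values were seen. V-J pairs were named up to 6 by p. In replicate 2 alone, the 6 highest shares and the 3 highest and 3 lowest folds among segments with at least 50 counts over both libraries were named.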

Additional observations from a re-analysis of the deposited data

How the results depend on the processing

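The answers to the comparisons had 64 alternative values, of which 53 kept their direction and their side of the threshold. The number of V segments past the threshold, 0 in the report, was 1 (Trdv1) with copies summed, with totals over the shared segments and with Trdv5 left out of the totals. It was 0 with TMM factors, with DESeq2, with no filter, with segments of 1 replicate kept and without any one library (range 0 to 0). The number of V-J pairs was 1 with TMM factors (Trdv1 with Trdj1). The replicate numbers name libraries and are not stated to pair them. Wild-type and EACBE-/- deviations of replicate 1 from their group means had a correlation of 0.904 across V segments. With the replicate block, 3 V segments (Trdv1, Trav15d-1-dv6d-1 and Trav15d-2-dv6d-2), 2 V-J pairs and 3 segments of the Trd against Tcra comparison (Trav14d-1, Trav15d-2-dv6d-2 and Trav4-4-dv10) passed. With the block and shared totals, 3 V segments and 2 pairs passed. With the block, the log2 change of Trav21-dv12 with Trdj2 was -0.72.

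Signs turned as follows. The log2 change of Trav21-dv12 was 0.0863 with Trdv5 left out of the totals, 0.51 without EACBE-/- replicate 1 and 0.40 without wild-type replicate 2 (leave-one-out range -0.96 to 0.51). That of Trdv2-1 was 0.48 with the replicate block, 0.51 with the block and shared totals, 0.0726 with Trdv5 left out of the totals, 0.11 without EACBE-/- replicate 1 and 0.57 without wild-type replicate 1 (range -0.53 to 0.57). Without EACBE-/- replicate 1 the log2 change was -0.90 for Trav15d-1-dv6d-1 (range -0.90 to 2.109) and -0.0125 for Trav15d-2-dv6d-2 (range -0.0125 to 1.70). The Trd minus Tcra change of Trav14d-1 was 0.40 without Trd wild-type replicate 2 (range -4.54 to 0.40). The share of Trav segments without dv differed by -4.06 percentage points without wild-type replicate 1 and by -5.20 without EACBE-/- replicate 2 (leave-one-out range -5.20 to 7.31). The cause was not tested.

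Without one library in turn, the difference of the Trdv group ran from -18.1 to -8.93 percentage points and that of the segments with dv from 5.35 to 19.5, the lowest without EACBE-/- replicate 1. The depth of 1744 counts in wild-type replicate 1 limits shares under about 0.172%, the share of 3 counts. With 2 libraries per genotype no exact permutation test can reach a p under 0.33.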
